A study of Mus musculus with 41 samples.

Results

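Kit, Stra8, Sohlh1, Sohlh2, Rarg, Rara, Dmrtb1 and Neurog3 are genes by which mouse spermatogonia take up, pass on or carry out the signal to differentiate. They were taken by symbol, through GENCODE M21 identifiers, from 2 count tables and from a table of RHOX10 peaks, and they are 8 of the 55536 genes in each count table. RHOX10 is an X-linked homeobox transcription factor, and the study asked which genes it controls in male germ cells. All mice and cells were C57BL/6. RNA-seq compared 4 wild-type libraries with 4 libraries labelled Rhox10-null, each made from eGFP+ cells sorted from the pooled testes of 3 mice that carried an OCT4-eGFP reporter (the labels give no age). iSLAM-seq, a method built on metabolic labelling of RNA after a factor is switched on, used germline stem cells cultured from neonatal testes. In all of these cells endogenous Rhox10 was knocked down by an shRNA lentivirus. They then carried either a Rhox10-ERT2-mCherry fusion, which responds to the inducer 4-hydroxytamoxifen (Rhox10 vector), or ERT2-mCherry alone (Ctrl vector). There were 2 libraries per vector at 0, 0.5, 1, 2, 4 and 8 h. By the labels, 0 h is before the inducer. The peaks came from CUT&Tag, an antibody-directed map of where a protein sits on DNA, in knockdown cells given HA-tagged Rhox10 (3 libraries). The control libraries of that assay were not used here.

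Retinoic acid made in the testis binds the nuclear receptors RARA and RARG and starts the passage of undifferentiated spermatogonia to differentiating ones. Differentiating spermatogonia gain KIT, the receptor for KIT ligand, and STRA8, a retinoic acid target that is later needed to enter meiosis. SOHLH1 and SOHLH2 are basic helix-loop-helix factors of this step, DMRTB1 is a DM-domain factor that acts late in the mitotic phase, and NEUROG3 marks undifferentiated cells that are about to differentiate.

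Of these genes, Kit was the 1 to which the authors' peak table assigned a RHOX10 peak. The peak lay at chr5:75574806-75575367 (GRCm38, 562 bases) and was annotated as promoter-TSS, 95 bases from a transcription start site (TSS). It listed all 3 libraries. Its score, the authors' own value, was 72.3, above 27.5% of the 5147 peaks, whose median was 127.5. Among protein-coding genes 20.6% (4527 of 21924) were named by a peak, so 1 of 8 was no more than that background. The peak began 110 bases before the first annotated start of Kit (chr5:75574916-75656722, plus strand). It covered the first exon with its coding sequence and ran on past the end of that exon at base 75575118. The stretch before the first start is printed below because it is the upstream sequence that the peak covered; 70.9% of its bases are G or C, and it holds none of the 4 motifs searched for, so that it has no capitals.

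Kit peak, part before the first start site, chr5:75574806-75574915, plus strand: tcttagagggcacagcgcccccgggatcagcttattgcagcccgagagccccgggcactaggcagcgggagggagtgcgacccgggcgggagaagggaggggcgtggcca

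The motifs searched for were TAAT, the core bound by homeodomain proteins, AGGTCA, a half-site bound by nuclear receptors such as the retinoic acid receptors, and the E-boxes CACGTG and CAGCTG, bound by basic helix-loop-helix factors. Both strands were searched in the 250 bases before each RefSeq start (GRCm38.p6), where TAAT was found in 54.9% of 32851 promoters, AGGTCA in 14.0%, CACGTG in 6.02% and CAGCTG in 13%. Stra8 (chr6:34920163-34939344, plus strand) held AGGTCA at 2 places, 194 and 38 bases before the RefSeq start, which lies inside the longer GENCODE gene. Sohlh1 (chr2:25842995-25847248, minus strand) held CACGTG at 3 places, and 1 of them overlapped an AGGTCA. Among the other members, in at least 1 of their 1 to 4 RefSeq promoters, AGGTCA was found for Rarg, TAAT for Rara and Dmrtb1, CACGTG for Rara, and CAGCTG for Rara, Dmrtb1 and Neurog3. Kit and Sohlh2 held none of the motifs there. These stretches are shown with the motifs in capitals because Stra8 and Sohlh1 are the members whose levels separated the vectors in every iSLAM-seq library; a match is a description of the letters, not of binding.

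Stra8 half-site 1, chr6:34920742-34920771, plus strand: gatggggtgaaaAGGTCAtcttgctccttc

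Stra8 half-site 2, chr6:34920898-34920927, plus strand: gcctggggtaccAGGTCAgttttttacctg

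Sohlh1 promoter part, chr2:25847411-25847498, minus strand: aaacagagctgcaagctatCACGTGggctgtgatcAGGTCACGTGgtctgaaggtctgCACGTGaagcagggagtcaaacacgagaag

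The other members lay farther from any peak, measured from the centre of the nearest peak to the nearest annotated start site of the gene. For Rara (chr11:98927818-98974942, plus strand) this was 22277 bases, from a peak past the end of the gene that was assigned to Gjd3. It was 67202 bases for Stra8, 69680 bases for Sohlh2 (chr3:55182028-55209957, plus strand) and 107476 bases for Rarg (chr15:102234938-102257517, minus strand). For Neurog3 (chr10:62133090-62134763, plus strand) the distance was 128342 bases, for Sohlh1 244254 bases and for Dmrtb1 (chr4:107676290-107684230, minus strand) 427284 bases. Neurog3 overlaps Fam241b on the opposite strand, and the strand setting of the counting is not given in the sources used here.

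The RNA-seq libraries held 6602089 to 8278887 counts and the iSLAM-seq libraries 9419615 to 12645845. Counts of Rhox10 itself ran from 3 to 10 in wild-type and from 4 to 11 in null-labelled libraries. Rhox10 thus did not separate the genotype labels (two-sided exact permutation test of counts divided by library totals, 70 arrangements, p = 0.286). In iSLAM-seq it stood at 34.0 to 46.6 CPM (counts scaled to one common library size) in the 12 Rhox10 libraries and 0.202 to 2.41 CPM in the 12 Ctrl libraries, a separation already present at 0 h. Ctrl 0.5 h replicate 2 stood apart from its partner: the chi-square divided by its degrees of freedom was 26.6, against at most 4.57 for any other iSLAM-seq pair, and 22.4% of 11861 genes differed between them by more than 1.5-fold. Where a call of a member rested on it, the value without it is given. In RNA-seq the same quotient was 4.02 to 4.49 for pairs with null-labelled replicate 4 and 1.37 to 1.54 for other null-labelled pairs. Pairs with wild-type replicate 4 had 1.72 to 2.71 and other wild-type pairs 1.22 to 1.63. Markers of other cells were present beside the germ cell genes in the sorted cells. Summed over the list, Sertoli markers stood at 417 to 436 CPM in wild-type and 478 to 494 CPM in null-labelled libraries, stromal markers at 333 to 354 and 533 to 574 CPM, and erythroid markers at 1.35 to 4.05 and 77.9 to 86.3 CPM. The 19 germ cell genes summed to 398 to 430 CPM in wild-type and 221 to 241 CPM in null-labelled libraries. Such markers were present in the cultured cells too. There the 8 stromal markers summed to 894 to 1459 CPM in Ctrl and 1072 to 1801 CPM in Rhox10 libraries, the 8 Sertoli markers to 184 to 444 and 234 to 556 CPM, and the 6 Leydig markers to 8.94 to 17.1 and 8.03 to 14.1 CPM. Amh of the Sertoli list and Hsd3b1, Insl3 and Lhcgr of the Leydig list had no counts. Nothing in the labels says that libraries of a group came from separate cultures, so the p-values of iSLAM-seq measure the spread between these libraries.

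In RNA-seq the genes that mark entry into differentiation were lower in the libraries labelled null. Stra8, Sohlh2, Sohlh1 and Kit were lower by log2 differences between -1.36 and -0.88 on the TMM scale (the trimmed mean scaling of edgeR), and Rara was slightly lower. Rarg did not pass the test, and Dmrtb1 and Neurog3 had too few counts to be tested. By edgeR's quasi-likelihood test with Benjamini-Hochberg adjustment over 13538 genes and a threshold of 0.05, 5 of the 6 tested members were lower and 0 higher; at an unadjusted p under 0.05 the counts were the same, and DESeq2 called 4 lower and 0 higher. Of all tested genes 18.8% were called lower and 18.7% higher. The median log2 difference of the 6 was -0.91, against 0.004 over all genes.

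Kit, the receptor tyrosine kinase that marks differentiating spermatogonia, had 8.38, 14.0, 10.5 and 12.8 CPM in wild-type replicates 1 to 4 and 6.52, 6.72, 6.46 and 5.09 CPM in the libraries labelled null. All 4 null-labelled libraries lay below all 4 wild-type ones. The log2 difference was -0.88 (SE 0.139, edgeR adjusted p = 2.19e-06). Stra8, the retinoic acid target, had 3.89, 3.96, 4.05 and 2.84 CPM in wild-type and 1.30, 1.98, 0.837 and 1.61 CPM in null-labelled libraries, from 7 to 26 counts each. The groups did not overlap, and the log2 difference of -1.36 (SE 0.253, edgeR adjusted p = 3.40e-05) was the lowest of the 6.

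Sohlh1 had 5.54, 4.57, 7.25 and 7.02 CPM in wild-type and 2.39, 2.77, 4.54 and 2.95 CPM in null-labelled libraries. The highest null-labelled library lay just under the lowest wild-type one, and the log2 difference was -0.95 (SE 0.192, edgeR adjusted p = 0.000121). Sohlh2, its partner, had 6.14, 5.94, 6.75 and 5.54 CPM in wild-type and 2.61, 2.5, 2.63 and 3.75 CPM in null-labelled libraries. Here the groups were clear of each other, with a log2 difference of -1.08 (SE 0.180, edgeR adjusted p = 5.28e-06). In all, 4 of the 6 tested members lay lower in every null-labelled library, where 16.3% of all tested genes did so.

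The receptors changed less. Rara, the retinoic acid receptor alpha, had 22.6, 24.1, 29.4 and 25.3 CPM in wild-type and 21, 23.5, 23.0 and 18.9 CPM in null-labelled libraries. The groups overlapped, and the log2 difference was -0.22 (SE 0.0816, edgeR adjusted p = 0.0270). That call was lost with DESeq2 (adjusted p = 0.130) and without wild-type replicate 3 (adjusted p = 0.132), null-labelled replicate 1 (0.0664) or null-labelled replicate 4 (0.110). Rarg, the gamma receptor, had 2.25, 1.22, 2.70 and 2.16 CPM in wild-type and 1.96, 2.11, 2.27 and 2.28 CPM in null-labelled libraries. These overlapped, and the log2 difference was 0.05 with a 95% interval from -0.47 to 0.57 (edgeR adjusted p = 0.893).

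Dmrtb1 had 4, 2, 4 and 1 counts in wild-type and 6, 5, 2 and 5 counts in null-labelled libraries. The groups overlapped (two-sided exact permutation test of counts divided by library totals, p = 0.171, where 4 against 4 can reach 0.0286). Neurog3 had 1 count in a single wild-type library and 3 counts in a single null-labelled library, so that no difference was detectable at this depth. Per kilobase of exon, the mean wild-type level ran from Rara at 5.80 CPM per kb over Sohlh1 at 4.73, Sohlh2 at 2.58, Stra8 at 2.04 and Kit at 1.28 to Rarg at 0.488, Dmrtb1 at 0.206 and Neurog3 at 0.0228 CPM per kb. The wild-type libraries of Rara and Sohlh1 overlapped on this scale, as did those of Stra8 and Kit, of Rarg and Dmrtb1, and of Dmrtb1 and Neurog3.

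**Figure D1:**
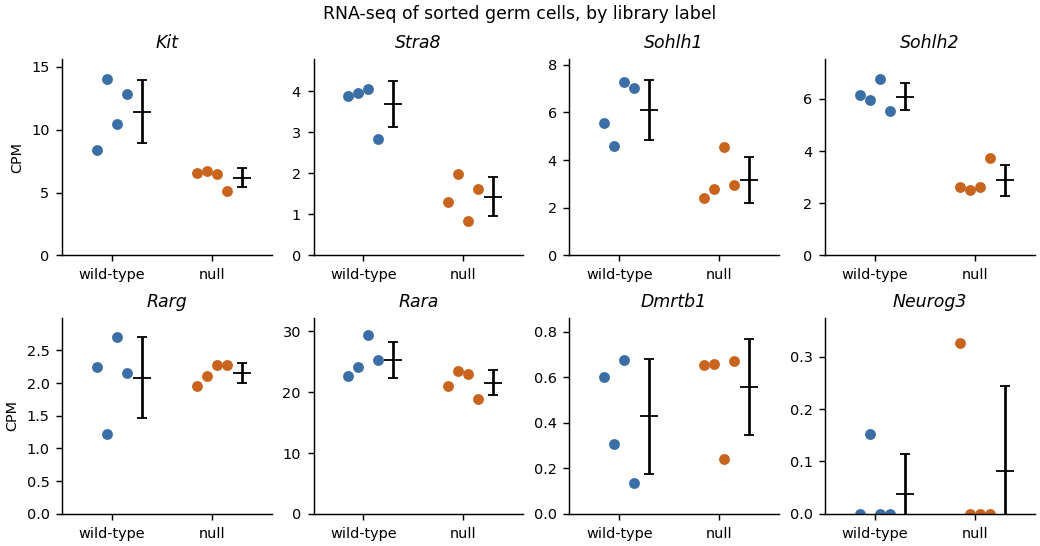
Level of each member in the RNA-seq libraries, in CPM on TMM-scaled library sizes, 4 wild-type and 4 null-labelled libraries per gene; points are libraries and bars the mean ± SD. Kit, Stra8, Sohlh1 and Sohlh2 are clear of overlap and lower in the null-labelled libraries, while Rara, Rarg, Dmrtb1 and Neurog3 overlap.

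The fall of the 4 genes ran beside a fall of germ cell genes in general. All 18 tested germ cell genes of the scaling list (Ddx4, Dazl, Mael and others) were lower, with a median log2 difference of -0.78. So were 13 of 14 markers of undifferentiated spermatogonia, with a median of -1.06. Over all tested genes 18.8% were called lower and 18.7% higher. Stromal markers were higher for 7 of 7 and erythroid markers for 6 of 6; their part in the lower levels was not tested. Whether a bulk library holds fewer cells of a type or less RNA per cell cannot be told apart. When the libraries were scaled to the summed germ cell genes, the log2 differences became -0.05 for Kit (edgeR adjusted p = 0.766), -0.53 for Stra8 (0.0511), -0.11 for Sohlh1 (0.594) and -0.25 for Sohlh2 (0.204), so that none of the 4 passed. Under that scaling Rara (0.61, edgeR adjusted p = 2.10e-08) and Rarg (0.88, 0.00178) were higher, against a shift of the median of all genes by 0.84; 2 members were called, both higher, and of all genes 11926 were called higher and 80 lower. With library totals in place of TMM, the median of all genes moved to 0.35 and the 4 genes were still called lower (Kit -0.54, Stra8 -1.02, Sohlh1 -0.60, Sohlh2 -0.74), while Rara turned to 0.12 (edgeR adjusted p = 0.224).

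In the cultured cells the same genes did not move as a block when the Rhox10 vector was compared with the Ctrl vector. Averaged over 0.5 to 8 h, Stra8, Rarg, Kit and Rara were higher with the Rhox10 vector, by log2 differences of 0.41, 0.32, 0.30 and 0.24, and Sohlh1 was lower, by -0.56. Sohlh2 and Dmrtb1 did not pass the test, and Neurog3 was all but absent. By edgeR's quasi-likelihood test with Benjamini-Hochberg adjustment over 20642 genes, 4 of the 7 tested members were higher and 1 lower, where 18.7% of all tested genes were called higher and 18.4% lower. Without Ctrl 0.5 h replicate 2 the counts were 3 higher and 2 lower.

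Stra8 ran from 63.3 to 88.6 CPM (median 76.4) in the 12 Ctrl libraries and from 92.5 to 115.9 CPM (median 104.1) in the 12 Rhox10 libraries. Every Rhox10 library lay above every Ctrl library, and the averaged log2 difference was 0.41 (SE 0.0550, edgeR adjusted p = 2.18e-06). Sohlh1 ran from 55.6 to 90.2 CPM (median 63.8) in Ctrl and from 36.7 to 51.7 CPM (median 45.6) in Rhox10 libraries. Every Rhox10 library lay below every Ctrl library, and the averaged log2 difference was -0.56 (SE 0.0638, edgeR adjusted p = 1.94e-07). Among all tested genes 2.79% lay higher and 2.47% lower in all 12 Rhox10 libraries without overlap. Sohlh1 was thus lower both in the null-labelled sorted cells and in the cultured cells that carried the Rhox10 vector, while Stra8 was lower in the former and higher in the latter.

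The separation of Stra8 and Sohlh1 was there at 0 h. At 0 h Stra8 stood at 83.0 and 67.4 CPM in Ctrl and 115.9 and 112.6 CPM in Rhox10 libraries, a log2 difference of 0.60 (SE 0.123, edgeR adjusted p = 0.00202). At 8 h it stood at 69.8 and 79.9 CPM in Ctrl and 92.5 and 95.5 CPM in Rhox10 libraries, a difference of 0.33 (edgeR adjusted p = 0.0739). The pairs did not overlap at any of the 6 times, and the call passed at 0, 0.5, 1 and 2 h. How often pairs of 2 libraries are apart at a single time was not counted over all genes. For each member such a separation is therefore a description only. The call at 0.5 h (adjusted p = 0.0424) was lost in 20 of 31 alternatives, with differences from 0.17 to 0.60. Those at 0, 1 and 2 h were lost in 1, 1 and 4 of 32. A call was gained at 4 h in 4 of 32 alternatives and at 8 h in 6 of 32. Sohlh1 stood at 66.3 and 67.2 CPM in Ctrl and 44.7 and 46.7 CPM in Rhox10 libraries at 0 h, a log2 difference of -0.55 (SE 0.142, edgeR adjusted p = 0.0137). At 8 h it stood at 62.4 and 64.3 CPM in Ctrl and 36.7 and 41.0 CPM in Rhox10 libraries, a difference of -0.71 (edgeR adjusted p = 0.00125). Its pairs did not overlap at any time either, and the call passed at 0, 0.5, 4 and 8 h. The call at 0 h was lost in 4 of 32 alternatives. At 1 h and at 2 h Sohlh1 gained a call in 4 of 32 each. At 0.5 h its Ctrl pair stood at 59.8 and 90.2 CPM, and without replicate 2 the difference went from -0.62 to -0.29 and the call was lost (adjusted p = 0.183). Stra8 and Sohlh1 were the 2 members of 7 called in the 0 h contrast, where 10.9% of all genes were called.

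For Kit the vectors were not apart at every time. Its vector difference did not pass the test of change after 0 h given below. The replicate pairs of the Ctrl vector, in CPM from 0 h through 0.5, 1, 2 and 4 to 8 h, were 37.1 and 37.1, 35.0 and 19.8, 40.2 and 37.0, 42.2 and 42.7, 53.5 and 43.5, then 46.9 and 44.5. The pairs of the Rhox10 vector in the same order were 42.8 and 45.2, 44.7 and 47.4, 50.4 and 50.6, 56.6 and 48.1, 54.1 and 49.2, then 47.6 and 42.4 CPM. The vectors were apart at 0, 0.5, 1 and 2 h, with Rhox10 higher, and overlapped at 4 and 8 h. The log2 differences in this order were 0.25, 0.75, 0.39, 0.30, 0.09 and -0.02, and the one that passed was that of 0.5 h (edgeR adjusted p = 0.00394). Without Ctrl 0.5 h replicate 2, which gave the lowest Kit value of all, the 0.5 h difference was 0.40 (edgeR adjusted p = 0.0828). The averaged difference was 0.30 (SE 0.0745, edgeR adjusted p = 0.00239), and 0.23 (adjusted p = 0.000463) without that library.

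Sohlh2 depended on that library most. From 0 h to 8 h its Ctrl pairs were 181.9 and 169.5, 180.5 and 68.0, 168.1 and 154.4, 175.2 and 164.3, 162.3 and 162.4, then 148.3 and 140.5 CPM. Its Rhox10 pairs were 133.8 and 151.8, 151.3 and 149.1, 138.3 and 156.0, 142.5 and 135.8, 140.9 and 129.3, then 137.0 and 138.4 CPM. The Rhox10 pair lay below the Ctrl pair at 0, 2, 4 and 8 h, and the pairs overlapped at 0.5 and 1 h. The averaged log2 difference was -0.10 (SE 0.0983, edgeR adjusted p = 0.486). It was -0.20 (adjusted p = 2.72e-07) without Ctrl 0.5 h replicate 2, 0.08 (adjusted p = 0.0418) without Ctrl 0.5 h replicate 1, and -0.17 (adjusted p = 6.43e-05) without both. With every library in, Sohlh2 passed at none of the 6 times.

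The retinoic acid receptors were both somewhat higher with the Rhox10 vector. Rarg ran from 45.9 to 58.7 CPM (median 52.4) in Ctrl and from 54.8 to 74.4 CPM (median 65.5) in Rhox10 libraries. The ranges overlapped over all times, and the pairs were apart at 5 of 6 times, a count with no share of all genes beside it. The averaged log2 difference was 0.32 (SE 0.0524, edgeR adjusted p = 2.72e-05), and the call passed at 4 h (0.50, adjusted p = 0.00539) and 8 h (0.38, adjusted p = 0.0297). Rara ran from 15 to 23.5 CPM (median 19.6) in Ctrl and from 20.3 to 28.0 CPM (median 23.8) in Rhox10 libraries. The ranges overlapped, and the pairs of Rara were likewise apart at 5 of 6 times. The averaged log2 difference was 0.24 (SE 0.0834, edgeR adjusted p = 0.0244), with no call at any single time. The averaged call of Rara was lost without Ctrl 0.5 h replicate 2 (0.19, adjusted p = 0.0513), Rhox10 0.5 h replicate 1 (0.0658) or Rhox10 2 h replicate 1 (0.0650).

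Dmrtb1 ran from 14.5 to 24.3 CPM (median 19.2) in Ctrl and from 15.6 to 25.5 CPM (median 20.8) in Rhox10 libraries. The ranges overlapped almost fully, and the averaged log2 difference was 0.11 with a 95% interval from -0.06 to 0.28 (edgeR adjusted p = 0.320). Neurog3 had 3 counts in Ctrl 1 h replicate 1, 2 counts in Ctrl 2 h replicate 2, 2 counts in Rhox10 1 h replicate 2 and none in any other library. No difference was detectable for it at this depth.

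**Figure D2:**
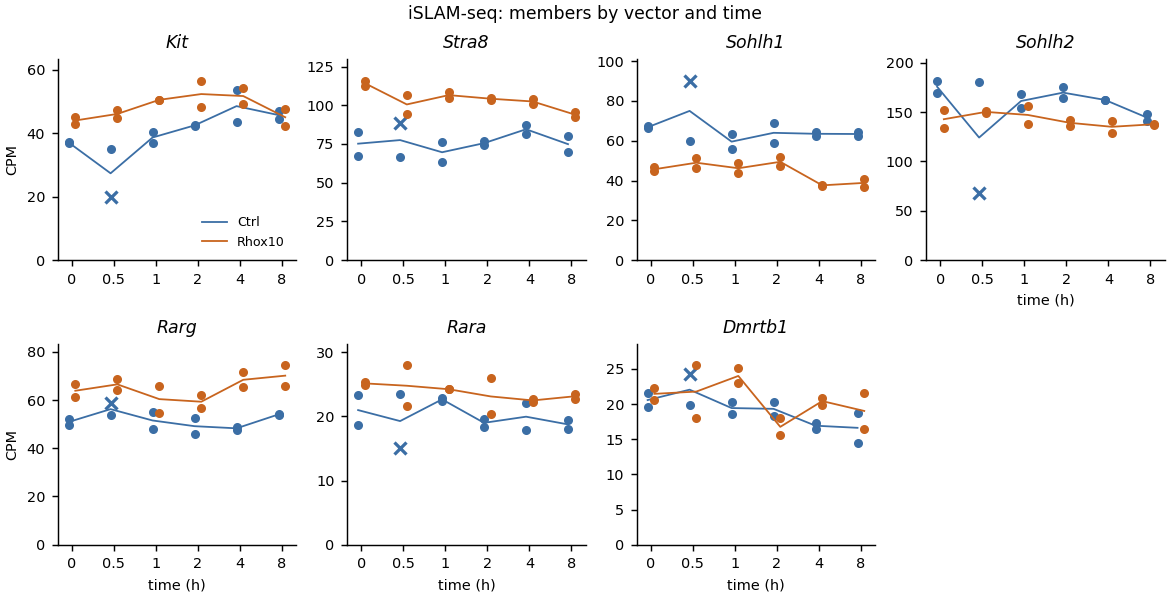
Level of 7 members in the 24 iSLAM-seq libraries against time (0, 0.5, 1, 2, 4 and 8 h, evenly spaced), in CPM on TMM-scaled library sizes; points are libraries, lines join the means of 2 libraries per vector, and the cross marks Ctrl 0.5 h replicate 2. Stra8 is higher and Sohlh1 lower in the Rhox10 libraries at every time, from 0 h on.

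Whether a difference between the vectors changed after 0 h was tested for each gene with an F-test over the 5 later times. Of the 7 tested members, 0 passed (edgeR quasi-likelihood test), 0 had an unadjusted p under 0.05, and DESeq2's likelihood ratio test called 0, with 1 at an unadjusted p under 0.05; 2.39% of all tested genes passed. Kit came nearest, with an unadjusted p of 0.0583 and an adjusted p of 0.441. How many members and how many of all genes passed depended on which library was left out. Without Ctrl 0.5 h replicate 1, the library standing apart was the only Ctrl library at 0.5 h. The 0.5 h log2 differences then went from 0.27 to 1.13 for Sohlh2 and from 0.75 to 1.21 for Kit. They went from -0.62 to -0.90 for Sohlh1 and from 0.38 to 0.17 for Stra8. The test was also run on simulated data with the same spread for all genes, no library standing apart and changes put in at 8 h alone. There it recovered only a minority of the changes. Its power on the real libraries was not measured, and a p that misses the threshold does not show that the differences stayed constant. Within the Ctrl vector alone, Kit changed over the 6 times (edgeR adjusted p = 0.0338), as did 5.74% of all genes, and the call was lost in 19 of 31 alternatives. Sohlh2 passed that test without Ctrl 0.5 h replicate 2 (adjusted p = 0.0153). Within the Rhox10 vector 0 of the 7 passed by edgeR, where 9.44% of all genes did, 1 had an unadjusted p under 0.05 (Sohlh1, 0.0476) and DESeq2 called 0. Without Ctrl 0.5 h replicate 2, Sohlh1 passed that test (adjusted p = 0.00924), and without Ctrl 0.5 h replicate 1 it did so too (0.0116).

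The number of members called in the contrast of a single time was 3 for 0.5 h (Kit, Stra8 and Sohlh1, beside 14.5% of all genes), 1 for 1 h (9.91%) and 1 for 2 h (10%), in both cases Stra8. The calls at 0.5 h were the least stable: Kit and Sohlh1 lost theirs without Ctrl 0.5 h replicate 2, 1 member was called without Rhox10 0.5 h replicate 1, and 0 were called when the libraries of that time were fitted alone. The number was 2 for 4 h (12.2%) and 2 for 8 h (16.8%), in both cases Sohlh1, lower, and Rarg, higher.

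**Figure D3:**
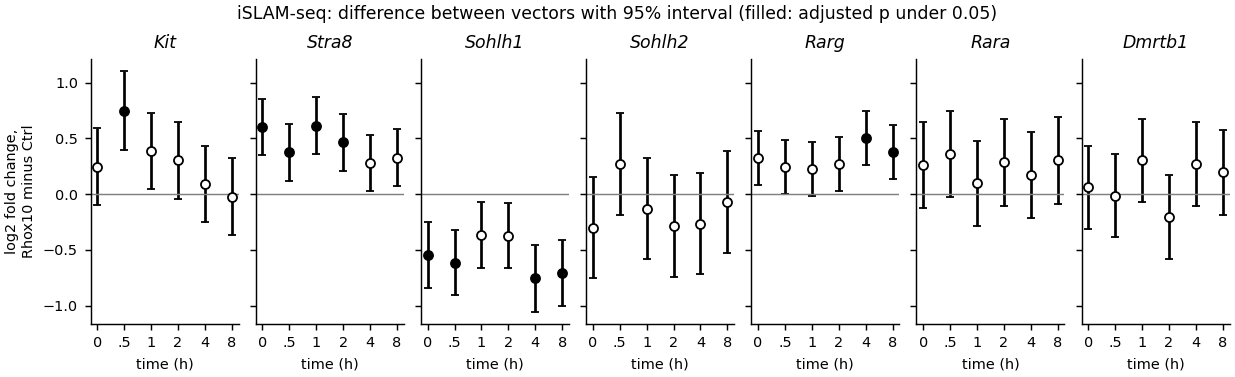
Log2 difference between the Rhox10 and Ctrl vectors at each time for 7 members, with its 95% interval from the edgeR fit over 24 libraries; filled points have an adjusted p under 0.05. Stra8 lies above 0 and Sohlh1 below 0 at every time, while Kit is at 0.75 at 0.5 h and -0.02 at 8 h. Without Ctrl 0.5 h replicate 2 the 0.5 h value of Kit is 0.40.

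Among the genes that make, carry and break down retinoic acid, 11 of 17 tested were higher with the Rhox10 vector and 0 lower in the averaged contrast, beside 18.7% and 18.4% of all genes. The list had a median log2 difference of 0.68, against 0.002 over all genes. Of the 8 stromal markers 3 were higher and 2 lower in that contrast, and their sum had a median of 1096 CPM in Ctrl and 1388 CPM in Rhox10 libraries; their part in the result was not tested. Without Ctrl 0.5 h replicate 2 the counts were 13 and 0, and with DESeq2 11 and 0. At an unadjusted p under 0.05, 12 were higher and 0 lower. Crabp1, which binds retinoic acid in the cytoplasm, ran from 257 to 398 CPM in Ctrl and from 441 to 651 CPM in Rhox10 libraries, a log2 difference of 0.99 (SE 0.0396, edgeR adjusted p = 4.51e-15). Cyp26b1, which breaks retinoic acid down, ran from 21.6 to 38.9 and from 29.4 to 73.0 CPM, which overlapped, with a log2 difference of 0.92 (edgeR adjusted p = 3.24e-09). At 0 h 4 genes of the list were called higher, beside 6.56% of all genes, and at 8 h 6, beside 8.06%, with 0 lower at either time.

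Aldh1a3, an enzyme that makes retinoic acid, was the gene of the list whose vector difference changed after 0 h (edgeR adjusted p = 0.0102). From 0 h to 8 h its Rhox10 pairs were 13.9 and 14.7, 11.7 and 13.5, 18.4 and 14.5, 28.1 and 32.6, 52.6 and 51.1, then 52.3 and 53.1 CPM. Its Ctrl pairs were 10.5 and 8.96, 8.67 and 6.86, 9.93 and 8.20, 15.2 and 11.9, 13.7 and 14.5, then 20.7 and 19.5 CPM. Both vectors thus had more Aldh1a3 at 8 h than at 0 h, and the Rhox10 libraries more so. The averaged log2 difference was 1.20 (SE 0.0765, edgeR adjusted p = 1.68e-11). Without Ctrl 0.5 h replicate 2, 5 of the 17 genes of the list passed the test of change, and with DESeq2 3.

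In RNA-seq the same list was split. Of 11 tested genes, 3 were higher in the null-labelled libraries (Cyp26b1 0.45, Aldh1a1 0.24, Adh1 0.75 on the log2 scale). Another 3 were lower, among them Stra6 (-0.69) and Crabp1 (-1.58), and the median was 0.23. Over all tested genes 18.7% were called higher and 18.8% lower. Aldh1a1 makes retinoic acid, Adh1 oxidizes retinol and STRA6 brings retinol into the cell. Under scaling to the germ cell genes 8 of the 11 were higher and 1 lower, where 88.1% of all genes were called higher. With library totals the counts were 7 and 2, where 53.1% of all genes were called higher and 4.72% lower. Stra6 turned to 0.15 under scaling to the germ cell genes, below the median of all genes there, 0.84, and did not pass. Crabp1 averaged 3.86 ± 0.552 CPM over wild-type and 1.30 ± 0.462 CPM over null-labelled libraries (SD, n = 4 each), and so was lower there and higher with the Rhox10 vector.

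**Figure D4:**
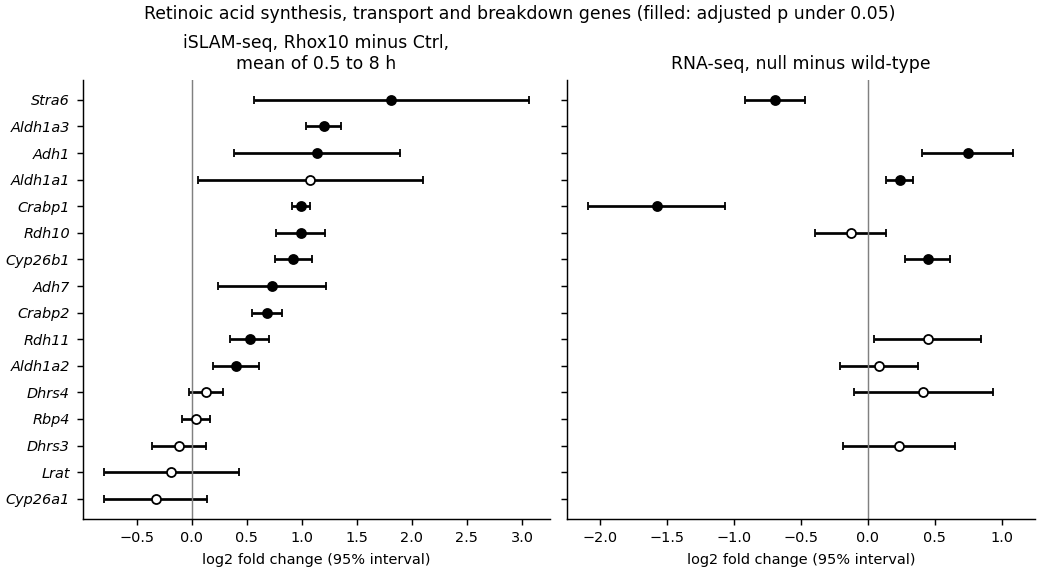
Log2 differences of the genes for retinoic acid synthesis, transport and breakdown in RNA-seq (null-labelled minus wild-type) and in the averaged iSLAM-seq contrast (Rhox10 minus Ctrl), with 95% intervals; filled points have an edgeR adjusted p under 0.05. Of the genes plotted, 10 of 16 are called higher in iSLAM-seq, and 3 are called higher and 2 lower of 10 in RNA-seq.

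The partners and corepressors of the receptors were called at about the share of all genes. In RNA-seq 3 of 10 were higher (Nrip1 0.39, Ncor1 0.22, Ncoa1 0.19) and 1 lower (Ncoa3 -0.23), where 37.5% of all genes were called. The RNA-seq call of Ncoa1 (edgeR adjusted p = 0.0449) was lost in 7 of the 8 fits that left out 1 library. In iSLAM-seq 1 of 11 was higher (Ncoa1 0.39) and 3 were lower, among them Crebbp (-0.16) and Rxra (-0.18), where 37.1% of all genes were called. Ncor1 encodes a corepressor, Ncoa1 and Ncoa3 coactivators, and Rxra the retinoid X receptor with which the retinoic acid receptors pair. Ncoa3 turned to 0.11 with library totals and 0.61 under scaling to the germ cell genes, against shifts of the median of all genes to 0.35 and by 0.84.

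The next list covers differentiating spermatogonia and the retinoic acid response in germ cells, so a gene on it need not mark differentiating cells. It was split in RNA-seq. Of 14 tested genes, 5 were lower and 3 higher, where 18.8% and 18.7% of all genes were, with a median log2 difference of -0.32. The lower ones included Lin28a (-1.27), which encodes an RNA-binding protein, Sall4 (-0.75) and Dmrt1 (-0.56), both transcription factors of spermatogonia, and the higher ones were Hes1 (0.83), Dnmt3a (0.27) and Rec8 (1.17). Scaling to the germ cell genes moved all genes upward by 0.84 in the median, and there Sall4 turned to 0.0859 and Dmrt1 to 0.28, both below that shift. In iSLAM-seq 8 of 19 were lower and 1 higher, where 18.4% and 18.7% of all tested genes were. Sall4 ran from 165 to 205 CPM in Ctrl and from 131 to 154 CPM in Rhox10 libraries without overlap, a log2 difference of -0.44 (edgeR adjusted p = 3.12e-10). Dmrt1 (-0.25) and Ccnd2 (-0.18), which encodes cyclin D2, were lower as well. Upp1, uridine phosphorylase, was the 1 that was higher (1.35), with 13.9 to 29.7 CPM in Ctrl and 34.4 to 77.2 CPM in Rhox10 libraries. Beside this, 14 of 16 markers of undifferentiated spermatogonia were lower with the Rhox10 vector and 0 higher, where 18.4% of all tested genes were lower. Already at 0 h, before the inducer, 8 of these 16 were lower and 1 higher, beside 4.32% and 6.56% of all genes. Of the 19 genes of the list above, 3 were lower and 1 higher at 0 h. The part of the undifferentiated markers in these results was not tested.

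Of the KIT pathway, Kitl, the ligand, was lower in the null-labelled libraries (-0.36) and higher with the Rhox10 vector (0.74, edgeR adjusted p = 2.87e-06). In RNA-seq Kitl turned to 0.48 under scaling to the germ cell genes, below the median of all genes there, 0.84. Pik3cd, a catalytic subunit of PI3 kinase, and Grb7, an adaptor, were lower in both assays. Pik3cd was at -0.97 in RNA-seq and -0.38 in iSLAM-seq, and Grb7 at -1.88 and -0.75. In RNA-seq 2 of 14 tested genes were higher (Rps6kb1 0.45, Akt1 0.24) and 3 lower, a share of calls near that of all genes. In iSLAM-seq 4 of 15 were higher, with Pik3r1 (0.48) and Akt1 (0.25) next to Kitl, and 5 were lower, with Lyn at -0.55. Of all tested genes 18.7% were called higher and 18.4% lower there. At 0 h, before the inducer, 3 of the 15 were higher and 2 lower, beside 6.56% and 4.32% of all genes.

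The genes whose levels ran closest to a member over the 24 iSLAM-seq libraries were found by Pearson's r of log2 CPM among 12054 genes. These libraries share the vectors, the times and Ctrl 0.5 h replicate 2, and r is a description. Nearest to Sohlh1 were Naa35 (0.960) and Usp26 (0.958), and nearest to Stra8 were Canx (0.908) and B4galt1 (0.906). For Rarg they were Ehd2 (0.908) and Nr2f2 (0.907), and for Rara Cpped1 (0.899) and Pdcd6ip (0.867). For Kit they were Tusc3 (0.935) and Rab1a (0.929), which went to 0.81 and 0.83 without Ctrl 0.5 h replicate 2, and for Sohlh2 Cstf2t (0.957) and Txnip (0.947), which went to 0.824 and 0.828. Dmrtb1 had no close match, with B930095G15Rik at 0.728 and Rabep1 at 0.725. Between members, r of Sohlh1 and Sohlh2 was -0.07 over 24 libraries, 0.78 without Ctrl 0.5 h replicate 2, and 0.26 within vectors without that library. Over the 21 pairs of members the within-vector r ran from -0.43 to 0.43.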

How the data were processed

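For RNA-seq and iSLAM-seq the authors deposited unnormalized counts, with genes in lines and libraries in columns. For RNA-seq the submitters' processing notes name STAR 2.5.2b, Subread, featureCounts and DESeq2 with GRCm38, and for iSLAM-seq limma 3.42.2 with mm10. The strand setting is not given in the sources used here, nor whether the iSLAM-seq counts are of all reads or of reads with conversions. The peak table carries a score that the authors deposited, 1 per merged peak, and the submitters' processing notes name Bowtie2 2.2.5, SAMtools and HOMER for it. The tables had 0 further columns of samples, and 55450 of 55536 identifiers had a symbol.

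Counts were tested in R 4.3.3 with edgeR 4.0.16 (limma 3.58.1 installed): TMM scaling, filterByExpr, the quasi-likelihood test and Benjamini-Hochberg adjustment over all tested genes, with calls at an adjusted p under 0.05. The RNA-seq fit held only the genotype, and the iSLAM-seq fit had 12 group means over all 24 libraries. Standard errors were recovered from each log2 difference and its F statistic. DESeq2 1.42.0, other scalings, filters, a replicate block and leaving out each library were alternatives. Fits were tested on simulated data; the test of change from 0 h missed the number of recovered genes first set for it and was then judged on effect size, sign and false calls. Genes under the filter in RNA-seq were compared by an exact permutation test of counts divided by library totals, without TMM scaling.

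The members, the lists and the tests were chosen with earlier results of these data known. Named genes are the 8 members and Rhox10; from each pathway list up to 3 called rises and 3 called falls of smallest p with a mean of at least 1 CPM in RNA-seq and in the averaged contrast; and for each member the 2 genes of highest r with a mean of at least 5 CPM. Gjd3, Fam241b and the marker genes named were added after their values were seen. Values of 2 listed genes are not reported here; counts over the lists include them, and the plot of the retinoic acid genes shows neither.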

Additional observations from a re-analysis of the deposited data

Results flagged for a closer look

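In several groups of 4 RNA-seq libraries 1 library stood apart, with a gap to the nearest other library that took more of the group's range than Dixon's critical value (chance gives about 1 such group in 20, and 56 groups of 28 genes were examined). The gap took 0.838 of the range for Kit among null-labelled libraries, where replicate 4 was low at 5.09 CPM against 6.46 to 6.72. It took 0.871 for Stra8 among wild-type ones, where replicate 4 was low at 2.84 CPM against 3.89 to 4.05. It took 0.898 for Sohlh2 in the null-labelled libraries, where replicate 4 was high at 3.75 CPM against 2.5 to 2.63. By chi-square over genes, replicate 4 of each genotype also differed most from its partners. For Dmrtb1 in the null-labelled libraries the share was 0.959, with replicate 3 low, from single counts. For Neurog3 it was 1 in both genotypes, since 1 library of each had any count. Among pathway genes it was 0.923 for Ncoa1 (null-labelled replicate 3) and 0.861 for Rec8 (wild-type replicate 4).

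Of 23 named genes examined, 3 had a vector difference in iSLAM-seq that changed after 0 h: Aldh1a3 (edgeR adjusted p = 0.0102), Ccnd2 (0.0419) and Lyn (0.0387). Of all tested genes 2.39% passed. The pathway genes among those examined had been picked as called in the averaged contrast of the same libraries.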

How the results depend on the processing

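Of 3784 values recomputed under the alternatives, 2945 of single genes kept their direction and side of the threshold and 547 counts stayed within 1.5 times. Replicate numbers recur across groups but do not pair the libraries: the correlation of same-numbered deviations ran from -0.0192 to 0.0140 in RNA-seq and averaged 0.00643 over 132 pairs in iSLAM-seq. With the replicate number as a block 5065 genes were called in RNA-seq and 7687 in the averaged contrast, with 5 members in each. In RNA-seq the genes called were 7828 with library totals (7189 higher), 2980 with DESeq2 and 12006 under germ cell gene scaling (11926 higher), where 2 members were called. Signs reversed with library totals for Ncoa3 (0.11) and Rara (0.12), and under germ cell gene scaling for Ncoa3 (0.61), Sall4 (0.0859), Kitl (0.48), Stra6 (0.15), Rara (0.61) and Dmrt1 (0.28). All of these lay below the median of all genes, which was 0.35 with library totals and 0.84 under germ cell gene scaling. Without the low-count filter the change from 0 h was called for 1002 genes and 1 member and the change within Ctrl for 2450 genes and 2 members. With DESeq2 these were 835 and 1915 genes. Kit at 8 h turned to 0.037 with library totals, 0.00037 without the filter and 0.0019 without both Ctrl 0.5 h libraries. Without those 2 libraries the genes called at 0, 1, 2 and 4 h were 3852, 3517, 3496 and 3940, with 1571 for change from 0 h, 2287 within Ctrl and 4510 within Rhox10, and the members 4, 3, 4 and 4, with 1 within Rhox10. Fits of a single time, from 0.5 to 8 h, called 0, 3604, 3516, 4805 and 5236 genes and, up to 4 h, 0, 3, 4 and 4 members. With peaks at or above the median score, 0 members had a peak.

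Leaving out 1 library in turn gave 4471 to 4692 genes and 4 to 5 members in RNA-seq and 6962 to 9034 genes and 4 to 6 members in the averaged contrast. By time, from 0 h on, the genes ran from 1076 to 3818, 1527 to 5984, 970 to 3544, 1023 to 3542, 1237 to 3993 and 1976 to 5010, and the members from 0 to 4, 1 to 4, 0 to 3, 0 to 3, 1 to 4 and 1 to 3. For change from 0 h they ran from 314 to 4331 genes and 0 to 4 members, within Ctrl from 769 to 6099 and 0 to 4, and within Rhox10 from 1322 to 4559 and 0 to 1. Signs of log2 differences reversed for Rarg in RNA-seq (-0.14 to 0.17), Dmrtb1 at 0 h (-0.012 to 0.13) and 0.5 h (-0.30 to 0.20), Sohlh2 at 0.5 h (-0.27 to 1.13), at 8 h (-0.094 to 0.0034) and averaged (-0.20 to 0.083), and Kit at 4 h (-0.023 to 0.28) and 8 h (-0.085 to 0.079). At 7 to 26 counts per library for Stra8 and under 7 for Dmrtb1 and Neurog3, depth limits RNA-seq. The other causes were not tested.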
